A study of Mus musculus with 45 samples.

Results

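Microglia isolated from the brains of adult C57BL/6 mice 24 h after an injection of lipopolysaccharide (LPS) were compared with microglia from mice given phosphate-buffered saline (PBS). The comparison was made up of 8 of the 45 samples of the study, 4 in the LPS group and 4 in the PBS group, chosen by their labels and not by any measured value. Both groups were wild-type mice of 10 to 15 weeks. The methods of the study describe female mice injected intraperitoneally, and the LPS dose was 1 mg/kg. Cells were enriched on a Percoll gradient and sorted by flow cytometry as CD11b high, CD45 intermediate, so that cells with high CD45 were gated out, and full-length cDNA libraries were made with SMART-Seq v4 and Nextera XT kits. The labels do not say whether each library came from 1 mouse, and the p-values below measure only the spread between these libraries. The rest of the study, which followed brain tissue, slice cultures and microglia taken from them, is not described here.

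Microglia are the resident macrophages of the brain and keep a gene program of their own, led by purinergic receptors, lectins and transcription factors that depend on TGF-beta and CSF1R signals. LPS, a component of the outer membrane of Gram-negative bacteria, is bound by CD14 and the TLR4 and MD-2 receptor complex. From there MYD88 leads to NF-kB and the early cytokines, and TRIF leads to type I interferon, whose receptor works through STAT proteins and IRF9. An intraperitoneal injection reaches the brain largely through circulating cytokines and the vessel wall, so the response of microglia in the animal is a mixture of direct and relayed signals.

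The 8 libraries held between 11391577 and 14216034 counts. Levels are given below as counts per 1000000 counts (CPM), with libraries scaled by edgeR's TMM factors, and a gene was called when its adjusted p from edgeR's quasi-likelihood test was under 0.05 and its fold change over 1.5. A log2 fold change (log2FC) is LPS against PBS, and SE is its standard error. The share of counts on mitochondrial genes was 0.580 to 0.696% with LPS and 0.409 to 0.465% with PBS, and that on cytosolic ribosomal protein genes 0.837 to 0.907% and 0.500 to 0.562%. The 10 most abundant genes took 7.89 to 8.57% of the counts with LPS and 10.8 to 11.2% with PBS.

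One library stood apart before any gene was tested. On a principal component analysis of the 2000 most variable genes, PC1 held 74.6% of the variance and separated the groups, and LPS replicate 2 lay at 22.2 on it where the other LPS libraries lay between 45.4 and 51.7 and the PBS libraries between -45.7 and -40.0. The same library lay alone on PC2 (6.81% of the variance), at -33.2 against 1.94 to 11.4 for the other 7. Results are therefore given with this library, and where its absence changed the calls of a gene group or of a gene named for its call, also without it. Its values are taken up gene group by gene group at the end.

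**Figure D1:**
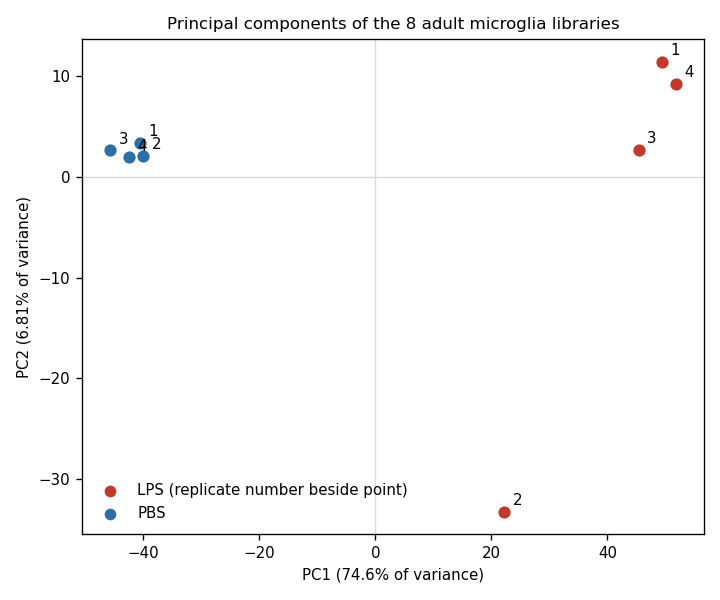
Principal components of the 8 adult microglia libraries, PC1 (74.6% of the variance) against PC2 (6.81%), with the replicate number beside each point, red for LPS and blue for PBS. The 4 PBS libraries lie together, 3 LPS libraries lie between 45.4 and 51.7 on PC1, and LPS replicate 2 lies between the groups on PC1 and below all others on PC2.

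The sorted cells carried the microglial markers. The summed level of the 10 microglial markers was 41002 to 47656 CPM with LPS and 58341 to 64989 CPM with PBS, with 2 of them called higher and 3 called lower. The 2 called higher were Itgam (log2FC 0.67) and Ptprc (log2FC 0.62), which encode CD11b and CD45, the proteins used for the sort. Whether the gate took the same cells in both groups was not tested. Neuronal markers summed to at most 1.69 CPM with LPS and 1.80 CPM with PBS, those of T and NK cells to at most 0.503 CPM in any library with Cd3e, Cd3g, Cd8a and Nkg7 at 0 in all 8, and among endothelial markers Cldn5 and Tek were at 0 in all 8. In sorted bulk RNA, fewer cells of a type and less RNA per cell cannot be told apart, and several low marker groups moved with the treatment. Of 10 neutrophil markers, 5 were tested (S100a8, S100a9, Camp, Ngp and Ltf) and all 5 fell. The summed levels of the 10 were 2.99 to 9.33 CPM with LPS and 41.0 to 84.8 CPM with PBS. Cxcr2, too low to be tested, went the other way, at 0.662 to 1.38 CPM with LPS and 0.0805 to 0.647 CPM with PBS. Ly6g, Mmp8, Retnlg and Mpo stood at no more than 0.505 CPM in any library. Of 7 monocyte markers, 5 were tested, Fn1 and F13a1 rose and Ccr2 fell, with sums of 32.4 to 214 CPM and 9.66 to 12.5 CPM. Border macrophage markers summed to 843 to 1205 CPM and 675 to 700.3 CPM, with Mrc1 and Cbr2 called higher among the 3 tested. Without LPS replicate 2 the call of Mrc1 was lost (log2FC 0.51) and Stab1, the third, was called higher (log2FC 0.67). B cell markers summed to 135 to 244 CPM and 453 to 518 CPM (Ighm fell, and Cd79b was called lower only without LPS replicate 2), oligodendrocyte markers to 136 to 156 CPM and 179 to 202 CPM (Mbp fell), and endothelial markers to 15.0 to 17.4 CPM and 40.7 to 49.7 CPM (Pecam1 and Kdr fell). Astrocyte markers summed to 2.65 to 5.03 CPM and 2.38 to 3.31 CPM, and erythroid markers to 4.22 to 24.2 CPM and 6.77 to 227 CPM, with Hba-a2 and Hbb-bt called lower, calls that were lost without LPS replicate 2 (edgeR adjusted p = 0.0716 and 0.0556). The part of these cells in the results below was not tested.

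Nearly as many genes fell as rose, relative to a TMM scaling that places most log2FC near 0. Total RNA per cell was not measured. The test covered 12987 genes and called 27.4% of them, with 14.4% above and 13% below the PBS level, and the median log2FC over all genes was 0.01. In 24.1% of all genes each of the 4 LPS libraries stood above every PBS library, and in 23.3% each stood below. This complete separation held for 1700 of the 1872 genes called higher and 1583 of the 1691 called lower. The largest changes ran toward gain, with 282 genes higher and 200 genes lower by more than 2 on the log2 scale.

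By mean level over all 8 libraries, between 1 and 10 CPM, 674 of 3470 genes were lower and 523 higher, and between 10 and 100 CPM 711 of 6902 were lower and 971 higher. Above 100 CPM, 233 of 2073 were lower and 350 higher. Below 1 CPM the median SE was 0.43 on the log2 scale against 0.08 above 100 CPM, and there 28 of 542 genes were called higher and 73 lower, so a given change in a rare transcript was harder to detect at this depth. Protein-coding genes made up 1671 of the genes called higher and 1447 of those called lower.

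**Figure D2:**
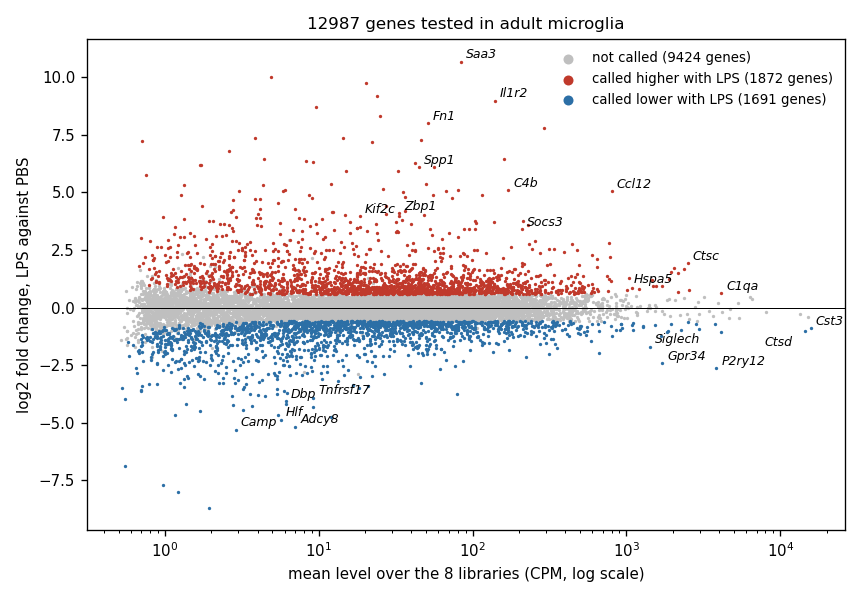
Log2FC, LPS against PBS, of the 12987 genes tested against their mean level over the 8 libraries (CPM, log axis), with 1872 genes called higher in red, 1691 called lower in blue and the rest in grey. The genes highest above the line, such as Saa3 and Il1r2, are of middle abundance, and P2ry12, Ctsd and Cst3 mark the loss among the most abundant transcripts.

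Among the gains with the smallest p were genes at a like level in all 4 LPS libraries. Socs3, the feedback inhibitor of cytokine receptor signalling (GRCm38 chr11:117966079-117970047, minus strand), stood at 34.1, 39.8, 35.4 and 35.5 CPM in PBS replicates 1 to 4 and at 430.4, 350.3, 377 and 376 CPM in LPS replicates 1 to 4. Tspo, an outer mitochondrial membrane protein used as an imaging target for activated microglia, stood at 38.7, 41.1, 37.6 and 41.2 CPM and then at 222, 189, 189 and 212 CPM (log2FC 2.35, SE 0.08, edgeR adjusted p = 3.64e-09). In both genes the groups lay far apart and LPS replicate 2 stood with its group. Gpr35, an orphan-class G protein-coupled receptor, rose from 28.7 ± 1.78 to 136 ± 10.6 CPM (SD, n = 4 each), and Sbno2, a transcriptional co-regulator downstream of STAT3, from 92.7 ± 4.93 to 341 ± 20.6 CPM. Il4ra, the interleukin-4 receptor chain, rose from 278 ± 19.8 to 1283 ± 163 CPM (log2FC 2.21, SE 0.10, edgeR adjusted p = 4.34e-08).

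Among the named genes that fell were several of low to middle level in PBS microglia. Prkch, a protein kinase C isoform, stood at 56.6, 75.5, 75.2 and 73.2 CPM with PBS and at 17.1, 17.7, 17.3 and 19.7 CPM with LPS (log2FC -1.96, SE 0.11, edgeR adjusted p = 1.47e-07). Lst1, a leukocyte membrane protein encoded in the MHC class III region, fell from 61.0 ± 2.78 to 14.5 ± 2.32 CPM, and Tnfrsf17, the receptor BCMA best known from plasma cells, from 17.3 ± 1.40 to 1.16 ± 0.605 CPM. Ighm, the heavy chain of IgM and a B cell marker, fell in the same libraries from 448 ± 25.8 to 153 ± 44.5 CPM, and its part was not tested. Cass4, a focal adhesion scaffold, fell from 48.2 ± 6.83 to 13.1 ± 2.72 CPM, and Tmem204 from 83.3 ± 5.58 to 31.2 ± 4.08 CPM. Adcy8, a calcium-stimulated adenylyl cyclase, fell from 13.7 ± 4.94 to 0.382 ± 0.340 CPM (log2FC -5.18, SE 0.51, edgeR adjusted p = 2.4e-05). The groups did not overlap in any of these genes, as in 1583 of the 1691 genes called lower. Gm3020 and Gm3488 also fell, but they are 2 of a family of near-identical copies on chromosome 14 whose reads the counting could have divided, and their single values are uncertain.

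The largest folds were in genes that PBS microglia barely expressed. Saa3, an acute-phase serum amyloid, stood at 0.215, 0, 0.0805 and 0.0721 CPM with PBS and at 180.1, 41.7, 181 and 266 CPM with LPS. Lrg1, a secreted leucine-rich glycoprotein, stood at 0, 0.144, 0.0805 and 0.0721 CPM and then at 65.6, 17.5, 63.1 and 45.8 CPM. In both, LPS replicate 2 was the lowest of its group and still far above PBS. Fpr1, the formyl peptide receptor, had 526 counts over the 4 LPS libraries and 0 over the 4 PBS libraries, which made it at least 182-fold higher against a floor of 3 counts over the group. Marco, a class A scavenger receptor, had 2139 counts against 2, a ratio of 1113 (95% exact interval 308 to 9198), and Trem1, an amplifier of myeloid activation, 1024 counts against 2, a ratio of 533 (147 to 4406). These intervals cover counting error only. Il1r2, the decoy receptor for interleukin-1, rested on 3 libraries, with 418, 317 and 367 CPM in LPS replicates 1, 3 and 4, 7.45 CPM in replicate 2 and at most 0.861 CPM in any PBS library. Genes of this kind are also expressed by blood myeloid cells. Of the markers of such cells, the neutrophil granule genes Camp and Ngp stood at or below 0.510 and 2.41 CPM in every LPS library, below every PBS library, whereas the monocyte marker F13a1 rose from 0.677 ± 0.500 to 13.3 ± 8.24 CPM and Fn1, which many macrophages express, from 0.390 ± 0.263 to 102 ± 66.9 CPM. Of the other tested monocyte markers, Ccr2 fell from 6.47 ± 0.305 to 3.68 ± 0.664 CPM, and Plac8 (log2FC 0.33) and Itga4 (log2FC -0.17) were not called. The part of monocytes in these folds was not tested.

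The receptor for LPS and its co-receptor were not called. Of 20 tested genes for Toll-like receptors and LPS sensing, 5 rose, 2 fell and 13 were not called, with a median log2FC of 0.27, beside 14.4% higher and 13% lower over all genes. Tlr4, the LPS receptor, stood at 192 ± 12.8 CPM with PBS and 219 ± 20.6 CPM with LPS (log2FC 0.19, SE 0.08, edgeR adjusted p = 0.0623). Cd14, its co-receptor, stood at 439.8, 456, 426 and 435 CPM with PBS and at 642, 401, 459.8 and 519.6 CPM with LPS, so the groups overlapped through LPS replicate 2 (log2FC 0.20, SE 0.12, edgeR adjusted p = 0.181). Ly96, which encodes MD-2, went from 38.9 ± 3.05 to 28.6 ± 1.69 CPM, a difference past the p threshold (log2FC -0.44, edgeR adjusted p = 0.00114) but under the fold limit. Tlr2, the receptor for bacterial lipopeptides, rose from 243 ± 12.2 to 1041 ± 413 CPM, and its partner Tlr1 from 81.2 ± 8.20 to 204 ± 52.4 CPM. Myd88, the shared adaptor, rose from 119 ± 7.08 to 209 ± 22.5 CPM, and Irak3, an inhibitory kinase of the pathway, also rose (log2FC 0.98). Tlr5, the flagellin receptor (log2FC -0.65), and Tlr9, the receptor for unmethylated DNA (log2FC -0.69), fell, and the call for Tlr5 was lost without LPS replicate 2, which left 1 lower.

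Downstream of NF-kB, 14 of 24 tested genes rose, 2 fell and 8 were not called, beside 14.4% higher and 13% lower over all genes. Their median log2FC was 0.84. Il1b, the principal inflammasome cytokine, stood at 2.73, 4.24, 2.90 and 4.40 CPM with PBS and at 130.0, 49.1, 86.2 and 160.4 CPM with LPS (log2FC 4.89, SE 0.45, edgeR adjusted p = 0.000101). Tnf stood at 2.66, 5.10, 3.30 and 4.18 CPM with PBS and at 109.8, 19.2, 57.7 and 89.7 CPM with LPS (log2FC 4.18, SE 0.60, edgeR adjusted p = 0.000914). LPS replicate 2 was the lowest LPS library for both cytokines and remained above all PBS libraries. Il1rn, the soluble antagonist of the interleukin-1 receptor, rose from 0.200 ± 0.157 to 5.35 ± 1.49 CPM, and Il12b, the p40 chain of interleukin-12 and interleukin-23, rose with a log2FC of 4.27. Il6 went the other way, at 8.04, 14.0, 9.58 and 11 CPM with PBS and 2.84, 1.03, 1.23 and 4.93 CPM with LPS (log2FC -2.07, SE 0.42, edgeR adjusted p = 0.0025), with no overlap. The pathway's own parts split, with Nfkb2 (log2FC 1.45), Relb (0.69) and the inhibitor Nfkbia (0.98) higher and Nfkb1 lower, from 191 ± 9.50 to 99.4 ± 6.71 CPM. Tnfaip3, the A20 deubiquitinase (log2FC 0.52), and Rel (-0.25) were not called.

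The 250 bases before the RefSeq start of Il1rn are printed because it had the largest fold change in this group among genes that carry the kappa B letters GGGNNTTTCC there. They lie at GRCm38.p6 chr2:24345121-24345370, plus strand, with the match in capitals.

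Il1rn: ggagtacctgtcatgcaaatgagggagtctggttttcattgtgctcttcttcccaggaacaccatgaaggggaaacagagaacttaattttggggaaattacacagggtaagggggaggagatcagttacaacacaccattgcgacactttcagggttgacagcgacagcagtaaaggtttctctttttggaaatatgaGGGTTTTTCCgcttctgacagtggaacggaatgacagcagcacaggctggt

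RefSeq promoter windows of 300 bases, 250 before and 50 after the start, were found for 9295 of the 12987 tested genes, and each motif was searched on both strands. The kappa B letters stood in 6 of 19 windows of the NF-kB group (31.6%), against 2.02% of all windows, 2.59% of those of genes called higher and 1.72% of those of genes called lower. A match describes letters and not a bound site.

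Chemokines held some of the largest inductions and a few losses. Of 17 listed, 11 were tested, 7 rose and 2 fell (median log2FC 2.84), beside 14.4% higher and 13% lower over all genes. Ccl12, a ligand of CCR2, stood at 60.9, 58.3, 30.2 and 37.4 CPM with PBS and at 2308, 725, 1367 and 1843 CPM with LPS (log2FC 5.06, SE 0.46, edgeR adjusted p = 9.19e-05). Ccl2, the best known CCR2 ligand, rose from 3.93 ± 1.45 to 131 ± 82.5 CPM, and the neighbouring Ccl7 from 0.550 ± 0.242 to 16.6 ± 11.9 CPM. Ccl5, which draws T cells and monocytes, stood at 3.95, 3.45, 0.322 and 0.505 CPM with PBS and at 71.7, 38.1, 58.8 and 106 CPM with LPS. Cxcl10, a CXCR3 ligand that interferon induces, stood at 9.55, 10.8, 0.966 and 1.73 CPM with PBS and at 107, 13.7, 41.1 and 73.8 CPM with LPS. For Ccl5 and Cxcl10, PBS replicates 1 and 2 were the higher of the PBS libraries, and for Cxcl10 LPS replicate 2 came close to them. Ccl6 and Ccl9, which microglia express at rest, fell to 60.3 ± 3.32 and 61.0 ± 4.70 CPM from 170.5 ± 8.61 and 162 ± 15.4 CPM, with LPS replicate 2 among its group. Ccl3 (log2FC 1.07) and Ccl4 (log2FC 0.91), chemokines that dissociation can also induce, were not called with all 8 libraries. Without LPS replicate 2 both were called higher (log2FC 1.31 and 1.15, edgeR adjusted p = 0.0119 and 0.033), which made 9 of the 11 chemokines higher and 2 lower.

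Interferon-stimulated genes rose almost as a whole, and rested largely on LPS replicates 1, 3 and 4. Of 33 tested, 32 were called higher and none lower, beside 14.4% and 13% of all genes, with a median log2FC of 1.91. All 4 LPS libraries stood above every PBS library in 18 of the 33, against 24.1% of all genes. Oasl2, an antiviral protein related to the oligoadenylate synthetases, stood at 12.6, 16.1, 5.80 and 9.16 CPM with PBS and at 149.8, 15.2, 105 and 119 CPM with LPS (log2FC 3.15, SE 0.69, edgeR adjusted p = 0.00734). Here the value of LPS replicate 2 lay inside the PBS range. Zbp1, a sensor of Z-form nucleic acid, stood at 4.74, 5.68, 1.29 and 2.74 CPM with PBS and at 91.2, 9.85, 63.1 and 86.9 CPM with LPS. Ifitm3, which restricts viral entry, stood at 18.3, 18.5, 8.86 and 15.5 CPM with PBS and at 296, 37.8, 192 and 259 CPM with LPS. In these genes LPS replicate 2 lay above the PBS libraries, but nearer to them than to its own group. Irf7, the factor that amplifies interferon transcription, rose from 17.0 ± 5.19 to 102 ± 51.6 CPM, and Mx1, a dynamin-like antiviral GTPase, from 6.14 ± 3.14 to 36.3 ± 17.1 CPM. Without LPS replicate 2, 33 of 33 were called higher and the median log2FC was 2.21, whereas limma-voom on all 8 libraries called 21. Ifitm2, which lies beside Ifitm3 and is close to it in sequence, was steadier, at 0.790, 2.01, 0.966 and 1.44 CPM with PBS and 26.3, 19.3, 23.1 and 24.7 CPM with LPS.

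The upstream bases of Slfn5, an interferon-induced member of the Schlafen family, show the core of an interferon-stimulated response element. Slfn5 stood at 8.69, 6.97, 2.98 and 3.97 CPM with PBS and at 52.7, 8.48, 42.7 and 69.0 CPM with LPS (log2FC 2.93, SE 0.66, edgeR adjusted p = 0.00809), with LPS replicate 2 inside the PBS range. The sequence is GRCm38.p6 chr11:82951852-82952101, plus strand, and the capitals mark TTTCNNTTTC read from the other strand.

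Slfn5: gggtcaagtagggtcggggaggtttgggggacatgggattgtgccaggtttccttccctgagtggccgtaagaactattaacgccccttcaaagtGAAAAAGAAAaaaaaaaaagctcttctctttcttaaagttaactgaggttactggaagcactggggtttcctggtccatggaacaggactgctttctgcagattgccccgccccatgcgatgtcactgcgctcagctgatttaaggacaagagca

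This core stood in 15 of 23 windows of the interferon-stimulated genes (65.2%) and in 3.93% of all 9295 windows. Genes called higher carried it in 6.83% and genes called lower in 3.69%.

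The guanylate-binding proteins and immunity-related GTPases, which attack vacuoles that hold pathogens, are induced chiefly by interferon-gamma. Of 14 tested, 10 rose and none fell (median log2FC 1.06), beside 14.4% higher and 13% lower over all genes. Without LPS replicate 2, 11 rose, as Tgtp2 was called. Gbp2 rose from 8.11 ± 1.27 to 32.1 ± 13.8 CPM with LPS replicate 2 lowest of its group at 15.2 CPM. Gbp7 was even over the libraries of each group, at 89.9, 90.7, 81.0 and 96.7 CPM with PBS and 298, 259, 289 and 281 CPM with LPS (log2FC 1.65, SE 0.07, edgeR adjusted p = 4.64e-08). Irgm2, which regulates the other GTPases, stood at 143 ± 5.51 and 136 ± 18.8 CPM and was not called. The bases before the start of Gbp7 (GRCm38.p6 chr3:142530086-142530335, plus strand) hold 2 matches to TTCNNNGAA, the letters of a gamma-activated site, in capitals.

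Gbp7: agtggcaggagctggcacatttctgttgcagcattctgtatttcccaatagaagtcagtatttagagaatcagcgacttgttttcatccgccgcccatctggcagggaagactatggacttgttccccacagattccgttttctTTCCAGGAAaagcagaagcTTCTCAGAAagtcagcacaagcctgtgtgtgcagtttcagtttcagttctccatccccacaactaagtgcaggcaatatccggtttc

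These letters stood in 5 of 9 windows of this group (55.6%) and in 8.24% of all windows. The share was 8.71% of the windows of genes called higher and 8.70% of those of genes called lower.

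Antigen presentation changed in parts. Of 19 tested genes for MHC class I and peptide loading, 7 rose and none fell (median log2FC 0.50, and 0.73 with 8 called higher without LPS replicate 2). Nlrc5, the transactivator of class I genes, stood at 11.7, 11.8, 8.13 and 11.2 CPM with PBS and at 56.5, 14.0, 32.4 and 55.9 CPM with LPS. Tap1, a subunit of the peptide transporter, rose from 83.8 ± 4.68 to 167 ± 47.6 CPM. H2-K1, a classical class I heavy chain, stood at 452, 467, 375 and 440.4 CPM with PBS and at 1029, 448, 707 and 942 CPM with LPS, with LPS replicate 2 among the PBS libraries. B2m, the light chain, was not called with all 8 libraries (log2FC 0.34, edgeR adjusted p = 0.0663), and LPS replicate 2 at 1592 CPM lay below every PBS library. Reads of the closely related H2 genes could be divided among them by the counting. In the class II pathway 2 of 10 rose and 3 fell, beside 14.4% higher and 13% lower over all genes. Cd74, the invariant chain, stood at 37.0, 35.4, 28.5 and 27.0 CPM with PBS and at 248, 129.7, 166 and 187 CPM with LPS, while H2-Ob, a brake on peptide loading, fell from 63.6 ± 4.61 to 18.1 ± 2.01 CPM. H2-Eb1, a class II beta chain, fell from 2.17 ± 0.467 to 0.605 ± 0.256 CPM, and H2-Aa (log2FC -0.67) and H2-Ab1 (log2FC -0.21) were not called. The invariant chain and the chains it escorts were not called in the same direction.

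Of the acute-phase, antimicrobial and oxidant genes, 8 of 12 tested rose and none fell (median log2FC 3.31). The shares over all genes were 14.4% higher and 13% lower. Cybb, the catalytic chain of the phagocyte NADPH oxidase, stood at 5.53, 7.54, 2.26 and 5.19 CPM with PBS and at 198, 37.8, 138 and 189 CPM with LPS (log2FC 4.76, SE 0.63, edgeR adjusted p = 0.00061). Its partners Cyba, Ncf1 and Ncf4 were not called, with log2FC of 0.48, 0.16 and 0.31. Acod1, which makes itaconate, rose to 8.76 ± 4.51 CPM and was read in only 1 PBS library, at 0.360 CPM. Lcn2, an iron-binding lipocalin, and Cp, the ferroxidase ceruloplasmin, rose with log2FC of 3.65 and 2.82.

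Complement genes rose at 9 of 13 tested and fell at none (median log2FC 0.74), beside 14.4% higher and 13% lower over all genes. C4b, of the classical pathway (GRCm38 chr17:34728380-34743882, minus strand), stood at 12.4, 12.1, 5.48 and 8.29 CPM with PBS and at 375, 208, 345 and 398 CPM with LPS (log2FC 5.11, SE 0.32, edgeR adjusted p = 1.06e-05). C3, the central component, rose from 1.72 ± 1.05 to 13.7 ± 5.52 CPM. C5ar1, the anaphylatoxin receptor, rose from 145 ± 5.30 to 810.0 ± 267 CPM. C1qa, among the most abundant transcripts of these cells, stood at 3130, 3334, 3184 and 3343 CPM with PBS and at 5325, 4397, 5427 and 5003 CPM with LPS, and was called higher (log2FC 0.63) where its partners C1qb (0.46) and C1qc (0.18) were not. The groups did not overlap for any of the 4 genes given in full, as for 1700 of the 1872 genes called higher.

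Of 19 tested JAK, STAT and SOCS genes, 4 rose and 2 fell, and the median log2FC was -0.03. These shares are near the 14.4% higher and 13% lower over all genes. Besides Socs3 and Il4ra, Stat3 rose from 218 ± 12.6 to 370.1 ± 16.6 CPM and Jak3 with a log2FC of 0.91. The interleukin-6 receptor chains fell, Il6ra from 335 ± 13.6 to 200.2 ± 13.5 CPM and Il6st, the shared gp130 chain, from 515 ± 64.3 to 341 ± 49.9 CPM. Socs1 (log2FC 0.08) and Socs2 (log2FC 0.00) were not called.

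Genes that mark resting microglia fell at 14 of 26 tested and rose at 2 (median log2FC -0.72, and -0.87 with 15 lower without LPS replicate 2), against 13% called lower over all genes. In 22 of the 26, each LPS library stood below every PBS library, against 23.3% of all genes. P2ry12, the purinergic receptor that directs the processes of microglia (GRCm38 chr3:59216272-59262871, minus strand), stood at 7222, 6530, 6468 and 6174 CPM with PBS and at 792, 1780, 950.1 and 759 CPM with LPS (log2FC -2.62, SE 0.29, edgeR adjusted p = 0.00017). Gpr34, a receptor for lysophosphatidylserine, stood at 3129, 2859, 2791 and 2756 CPM with PBS and at 432, 888, 417 and 409 CPM with LPS (log2FC -2.43, SE 0.27, edgeR adjusted p = 0.000179). In both, LPS replicate 2 was the highest of its group and well below PBS. Siglech, a sialic acid-binding lectin, fell from 2177 ± 80.5 to 672 ± 280.2 CPM, and Slc2a5, the fructose transporter, from 1062 ± 42.2 to 267 ± 121 CPM. Trem2, a lipid receptor, fell from 1467 ± 41.3 to 750.0 ± 98.1 CPM, and P2ry13 and Entpd1, a further purinergic receptor and the ectonucleotidase CD39, fell with log2FC of -1.08 and -1.01. P2ry6, the receptor for uridine diphosphate linked to phagocytosis, was called higher (log2FC 0.63).

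Other members of the resting program moved by less than the fold limit. Tmem119 went from 5411 ± 72.2 to 3922 ± 204 CPM (log2FC -0.46, edgeR adjusted p = 9.34e-05). Csf1r, the receptor on which microglia depend, stood at 15851, 14587, 14091 and 14069 CPM with PBS and at 13032, 11978, 11026 and 12303 CPM with LPS (log2FC -0.28, edgeR adjusted p = 0.00814). Cx3cr1, the fractalkine receptor, did not pass the p threshold (log2FC -0.19, SE 0.08, edgeR adjusted p = 0.0514). The log2FC of the most widely used resting markers thus ran from -2.62 for P2ry12 to -0.19 for Cx3cr1.

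Of 16 tested lineage transcription factors, 4 rose and 3 fell (median log2FC -0.41), beside 14.4% higher and 13% lower over all genes. Without LPS replicate 2, 3 rose and 4 fell, since Nfil3 lost its call and Mef2c was called lower. Cebpa stood at 129, 141, 139 and 135 CPM with PBS and at 46.3, 76.2, 55.2 and 35.3 CPM with LPS (log2FC -1.36, SE 0.20, edgeR adjusted p = 0.000549), and its relative Cebpb, which acute inflammation induces in many cells, rose from 115 ± 16.3 to 343 ± 53.8 CPM. Sall1, which sets microglia apart from other macrophages, fell from 543 ± 15.0 to 335 ± 33.0 CPM, and Maf fell from 282 ± 5.08 to 122 ± 6.58 CPM. Spi1, which encodes PU.1, stood at 378 ± 6.39 and 354 ± 14.3 CPM and was not called (edgeR adjusted p = 0.191). Runx1 (log2FC 0.66) and the repressor Bcl6 (log2FC 0.83) rose. Of 17 tested TGF-beta signalling genes, 1 rose, 3 fell and 13 were not called (median log2FC -0.17), beside the same shares over all genes. Tgfbr1, the type I receptor, fell from 2499 ± 141 to 1240 ± 139 CPM. The co-receptor Eng fell from 137 ± 5.32 to 63.7 ± 7.72 CPM. Ltbp3, a latent TGF-beta binding protein, fell with a log2FC of -0.83. Smad6, an inhibitory SMAD, rose (log2FC 0.61) and lost its call without LPS replicate 2, and Tgfb1 (log2FC -0.54) was not called.

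**Figure D3:**
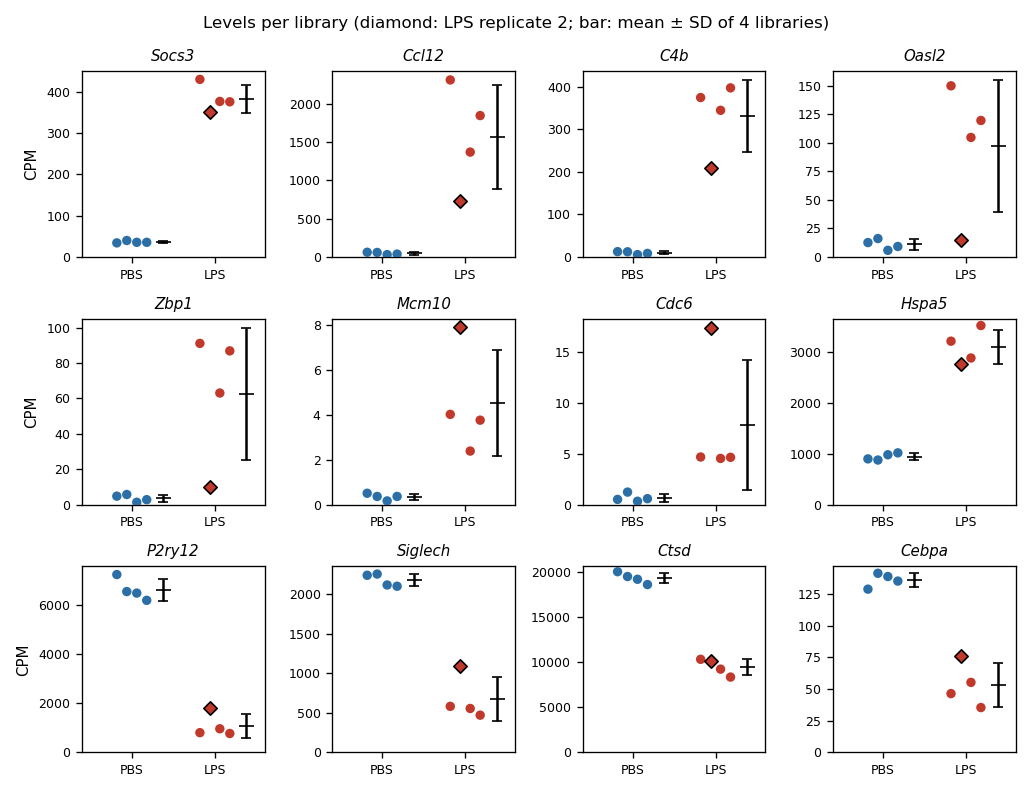
Level in CPM of 12 genes in each library, PBS in blue and LPS in red, LPS replicate 2 as a diamond, with the mean ± SD of 4 libraries beside each group. LPS replicate 2 lies with its group for Socs3, Hspa5 and Ctsd, among or near the PBS libraries for Oasl2 and Zbp1, and above the other LPS libraries for Mcm10 and Cdc6.

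Genes of the disease-associated state, which microglia adopt around plaques and in degeneration, rose at 11 of 18 tested and fell at 3. Over all genes 14.4% were called higher and 13% lower. The median log2FC of the group was 1.36, and 12 were higher and 3 lower without LPS replicate 2. Spp1, which encodes osteopontin, stood at 1.15, 1.72, 0.886 and 1.30 CPM with PBS and at 141, 22.3, 75.7 and 112 CPM with LPS (log2FC 6.10, SE 0.72, edgeR adjusted p = 0.000343). Cst7, a cystatin, rose from 7.79 ± 0.854 to 42.8 ± 4.90 CPM, and Apoe from 243 ± 44.4 to 593 ± 185 CPM. The 3 that fell were Ctsd, the lysosomal protease cathepsin D, from 19345 ± 598 to 9492 ± 902 CPM, the tetraspanin Cd9 from 1132 ± 34.6 to 476 ± 59.6 CPM, and the pyrophosphate transporter Ank from 46.7 ± 1.00 to 15.2 ± 2.11 CPM. Trem2, on whose signal much of this state depends, fell as well, and its adaptor Tyrobp (log2FC 0.02) and Clec7a (0.20) were not called. Tests of these groups against each other were not made.

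Genes of DNA replication and entry into S phase rose at 33 of 40 tested, and none fell (median log2FC 1.61). The shares over all genes were 14.4% higher and 13% lower. Mcm10, which helps to open the origin, stood at 0.503, 0.359, 0.161 and 0.360 CPM with PBS and at 4.01, 7.88, 2.38 and 3.75 CPM with LPS (log2FC 3.65, SE 0.45, edgeR adjusted p = 4.22e-05). Cdc6, which loads the replicative helicase, stood at 0.503, 1.22, 0.322 and 0.577 CPM with PBS and at 4.67, 17.4, 4.53 and 4.64 CPM with LPS (log2FC 3.53, SE 0.61, edgeR adjusted p = 0.00095). The groups did not overlap, and LPS replicate 2 was the highest of its group in both. Timeless, a protector of the replication fork, was even, at 3.88, 3.38, 1.93 and 2.88 CPM with PBS and 31.4, 39.0, 30.7 and 35.8 CPM with LPS. Among the helicase subunits Mcm2 rose from 17.6 ± 3.45 to 102 ± 21.9 CPM and Mcm5 from 14.6 ± 3.55 to 87.3 ± 22.2 CPM. Pcna, the sliding clamp, rose from 38.9 ± 2.50 to 64.5 ± 9.68 CPM. Without LPS replicate 2, 33 of 40 were again called higher and the median log2FC was 1.39.

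Of 30 genes of mitosis listed, 24 were tested, 7 rose and 1 fell (median log2FC 0.74), beside 14.4% higher over all genes. Without LPS replicate 2, 6 were called higher and 2 lower (median log2FC 0.41). Kif2c, a kinesin that shortens microtubules at the kinetochore, stood at 3.59, 2.80, 1.13 and 1.30 CPM with PBS and at 37.9, 31.5, 36.1 and 33.5 CPM with LPS, evenly over the libraries. Mki67, the usual marker of cycling cells, stood at 0.646, 2.87, 1.13 and 2.52 CPM with PBS and at 1.17, 9.33, 1.15 and 0.515 CPM with LPS (log2FC 0.73, SE 0.93, edgeR adjusted p = 0.546). Cdk1, the mitotic kinase, stood at 3.09, 3.45, 3.06 and 2.23 CPM with PBS and at 3.14, 9.76, 2.30 and 2.50 CPM with LPS (edgeR adjusted p = 0.313). For Mki67 and Cdk1, LPS replicate 2 alone stood above the PBS libraries, and the other 3 overlapped with them. Top2a, a topoisomerase of late S phase and G2, was high in the same library, at 13.3 CPM against 2.80 to 3.57 CPM in the other LPS libraries and 1.66 to 1.93 CPM with PBS. Ccnb1 (log2FC 0.61) and Plk1 (log2FC -0.48) were not called. The upstream bases of Kif2c (GRCm38.p6 chr4:117178773-117179022, minus strand) hold the letters of the cell-cycle homology region, TTTGAA read from the other strand, in capitals.

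Kif2c: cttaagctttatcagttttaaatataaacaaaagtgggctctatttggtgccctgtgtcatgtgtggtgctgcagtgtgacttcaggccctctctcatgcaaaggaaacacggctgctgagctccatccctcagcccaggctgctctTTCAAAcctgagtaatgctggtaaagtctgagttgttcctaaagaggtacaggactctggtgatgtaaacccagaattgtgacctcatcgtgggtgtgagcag

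These letters stood in 16 of 20 windows of the mitotic genes (80.0%) and in 14.3% of all windows. The windows of genes called higher held them in 14.7% and of genes called lower in 16.0%.

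The machinery of protein synthesis and folding rose together. Of 79 tested cytosolic ribosomal proteins 56 were called higher and none lower, beside 14.4% and 13% of all genes. The median log2FC was 0.73, with 55 called without LPS replicate 2. For 77 of the 79 each LPS library stood above every PBS library, against 24.1% of all genes. Rpsa, a small-subunit protein, stood at 67.0, 75.6, 69.8 and 74.5 CPM with PBS and at 225, 198, 206 and 194 CPM with LPS (log2FC 1.52, SE 0.07, edgeR adjusted p = 6.78e-08). Rpl12, of the large subunit, rose from 10.6 ± 1.18 to 29.3 ± 4.35 CPM. Single ribosomal protein genes share reads with many processed pseudogenes, and how the counting treated these is not given in the sources used here, so single values are uncertain.

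Of 20 tested chaperones and stress genes of the endoplasmic reticulum 16 rose and none fell (median log2FC 1.18). The shares over all genes were 14.4% higher and 13% lower. Hspa5, the chaperone BiP, stood at 900.0, 877, 981 and 1018 CPM with PBS and at 3220, 2775, 2889 and 3529 CPM with LPS (log2FC 1.72, SE 0.09, edgeR adjusted p = 1.29e-07). Sdf2l1, which works with it, rose from 136 ± 16.7 to 505 ± 49.0 CPM. Xbp1, a transcription factor of the unfolded protein response, passed the p threshold under the fold limit (log2FC 0.52, edgeR adjusted p = 0.000137). Ddit3, the CHOP factor tied to cell death under prolonged stress, went from 23.7 ± 2.52 to 19.3 ± 1.24 CPM (log2FC -0.30, edgeR adjusted p = 0.0319), also under the limit. The bases before the start of Hspa5 (GRCm38.p6 chr2:34771840-34772089, plus strand) are printed for their match to the endoplasmic reticulum stress element, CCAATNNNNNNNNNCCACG, in capitals.

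Hspa5: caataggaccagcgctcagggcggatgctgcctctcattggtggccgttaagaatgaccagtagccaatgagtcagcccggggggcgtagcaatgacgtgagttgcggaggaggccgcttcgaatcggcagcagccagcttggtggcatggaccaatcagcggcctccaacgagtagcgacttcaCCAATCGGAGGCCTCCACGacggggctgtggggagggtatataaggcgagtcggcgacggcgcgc

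Of all 9295 windows 16 held this element (0.172%), and 7 of these were among the 18 windows of the endoplasmic reticulum group (38.9%). Genes called higher held it in 0.647% of windows and genes called lower in 0.0821%.

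Of 20 tested genes of cholesterol synthesis and uptake 11 rose and none fell (median log2FC 0.64), among them Sqle, squalene epoxidase, from 2.20 ± 0.281 to 7.45 ± 1.03 CPM. Of 17 tested genes of glycolysis and glucose uptake 5 rose and 1 fell (median log2FC 0.27), and 6 rose without LPS replicate 2. Over all genes 14.4% were called higher and 13% lower. Pkm, pyruvate kinase, rose from 324 ± 17.0 to 672 ± 71.4 CPM and Gapdh from 186 ± 9.50 to 353 ± 31.0 CPM, while the hexokinase Hk1 fell from 52.8 ± 1.81 to 30.9 ± 2.87 CPM and Hk2 was not called (log2FC 0.32). Of 13 mitochondrially encoded genes 3 were called higher (median log2FC 0.54), beside 14.4% over all genes. In 12 of the 13 each LPS library stood above every PBS library, against 24.1% of all genes.

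Among 14 tested glucocorticoid-responsive genes 3 rose and 1 fell, near the 14.4% and 13% over all genes. Fkbp5 stood at 95.8, 136, 162 and 150.5 CPM with PBS and at 172, 147, 419.8 and 190.1 CPM with LPS (log2FC 0.77, SE 0.37, edgeR adjusted p = 0.119), and Tsc22d3, which encodes GILZ, at 83.6, 185, 110.3 and 169.8 CPM with PBS and at 71.8, 79.2, 105 and 45.0 CPM with LPS (log2FC -0.87, edgeR adjusted p = 0.0659). The groups overlapped in both. Map3k6 rose from 0.494 ± 0.263 to 4.47 ± 2.56 CPM and Sgk1, a kinase, fell from 661 ± 95.0 to 304 ± 55.7 CPM. Of 18 tested immediate early and dissociation genes 6 rose and 5 fell (median log2FC 0.25), and 4 fell without LPS replicate 2. Ier3 rose from 6.15 ± 1.25 to 59.5 ± 31.4 CPM, and the stress chaperone Hspa1b stood at 5.74, 23.9, 6.44 and 35.2 CPM with PBS and at 221, 283, 188 and 68.1 CPM with LPS, a wide spread in both groups. Fos (log2FC 0.96, SE 1.07), Jun (0.07) and Egr1 (0.20), the genes most often raised by tissue dissociation, were not called, and Fos ran from 0.215 to 15.1 CPM among the PBS libraries alone.

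**Figure D4:**
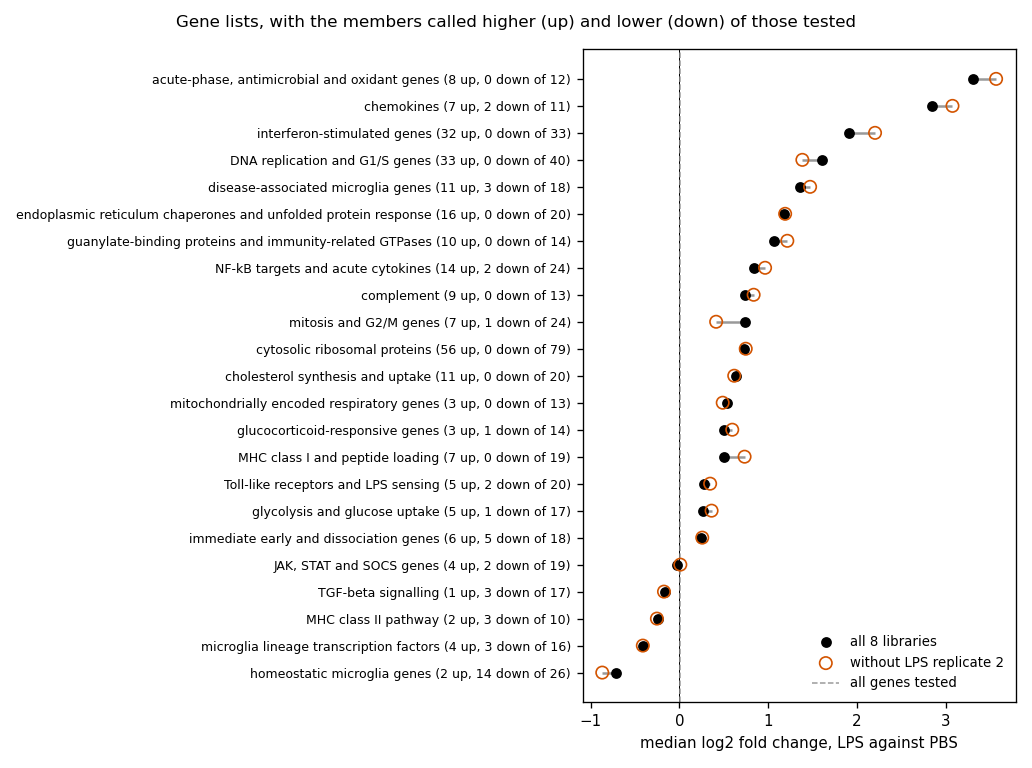
Median log2FC, LPS against PBS, of the tested members of 23 gene groups, with all 8 libraries (filled) and without LPS replicate 2 (open), and beside each name the number called up and down of those tested. Medians run from -0.72 for the resting microglia genes to 3.31 for the acute-phase genes, and leaving out LPS replicate 2 moved the groups for interferon-stimulated genes up and those for DNA replication and mitosis down.

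To place LPS replicate 2 gene by gene, each gene called from the other 7 libraries was given a position, 0 at the mean log2 level of the PBS libraries and 1 at the mean of the other LPS libraries. Over 3943 genes its median position was 0.67, with quartiles of 0.46 and 0.89, and 28.5% of the genes lay under 0.5. The same measure, each library left out in turn, gave 1.08, 1.01 and 1.09 for LPS replicates 1, 3 and 4. In those 3 the reference includes LPS replicate 2, so that values over 1 are partly built in. Among all genes called with 8 libraries, LPS replicate 2 was the LPS library nearest to PBS in 62.5%, against 11 to 13.4% for each of the others, and it lay inside the PBS range in 194.

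The position of LPS replicate 2 differed between gene groups. For 33 interferon-stimulated genes its median position was 0.23, with every gene under 0.5, and it was 0.26 for 8 genes of MHC class I and for 11 guanylate-binding proteins and related GTPases. For 16 NF-kB targets it was 0.50, for 11 chemokines 0.58 and for 17 resting microglia genes 0.63. It was 0.86 for 16 chaperones of the endoplasmic reticulum, 0.87 for 15 disease-associated genes and 0.95 for 55 ribosomal protein genes, close to the rest of its group. For 33 genes of DNA replication it was 1.45, where LPS replicates 1, 3 and 4 had 0.92, 0.80 and 0.93, and for 8 mitotic genes 1.40. The reference for replicates 1, 3 and 4 includes LPS replicate 2, so their values under 1 are partly built in here. For 3 mitochondrially encoded genes the median position of LPS replicate 2 was 1.17, also the highest of the 4 LPS libraries. By these medians the library stood close to its group for protein synthesis genes, nearer to PBS for interferon-stimulated genes and beyond its group for replication genes. No label sets it apart, and a cause was not tested.

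**Figure D5:**
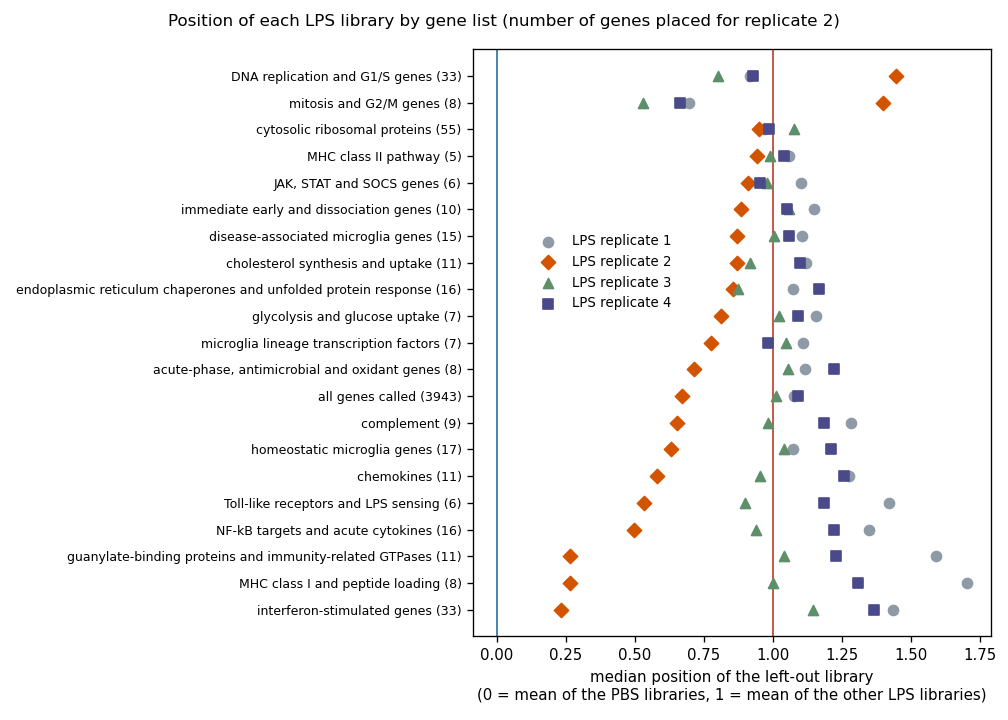
Median position of each LPS library, left out in turn, in the gene groups with at least 5 placed genes, where 0 (blue line) is the mean of the PBS libraries and 1 (red line) the mean of the other LPS libraries. LPS replicate 2 (diamonds) runs from 0.23 in the interferon-stimulated genes to 1.45 in the DNA replication genes, and has the lowest position of the 4 libraries in all groups shown but those of DNA replication and mitosis.

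Most calls held without this library. With 7 libraries 4044 of 13225 tested genes were called, 2081 higher and 1963 lower. Of the 3563 genes called with all 8, 3451 were called in the same direction, none in the opposite direction, and 112 lost their call, 57 of them higher and 55 lower. A further 492 genes tested both ways were gained, 225 higher and 267 lower. The median size of the log2FC of the 3563 genes went from 1.00 to 1.07, and genes past 2 on the log2 scale from 482 to 604. Of the genes chosen for naming, Tlr5, Smad6 and the immediate early gene Egr2 lost their calls, and for P2ry12 the log2FC went from -2.62 to -2.98, for Oasl2 from 3.15 to 3.51, for Cdc6 from 3.53 to 2.79 and for Hspa5 from 1.72 to 1.77.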

How the data were processed

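RNA-seq libraries of sorted adult microglia were analysed from the table of expected counts that the authors deposited, with values estimated per gene and not whole numbers. The processing notes name mm10 as the genome build, and the aligner, counter and strand setting were not given in the sources used here. Identifiers were named from GENCODE M21, and 419 of 47643 could not be named (0.0920% of counts). Expected counts were rounded, which altered 70872 values and the total by 0.000931%. Genes with too few counts were removed with edgeR's filterByExpr (minimum count 10, minimum total 15). edgeR 4.0.16 in R 4.3.3 was used for TMM scaling and the quasi-likelihood test with robust dispersions, fitted to the 4 LPS and 4 PBS libraries alone, with p-values adjusted by Benjamini-Hochberg over all 12987 genes tested. Calls needed an adjusted p under 0.05 and a fold over 1.5. limma 3.58.1 (voom), DESeq2 1.42.0, other scalings, filters and fold limits, a replicate block and the omission of each library in turn were alternatives. The model code was tested on simulated counts.

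The 23 gene lists (527 genes), the marker lists and the rule for named genes were written with earlier results of these data known. The rule took the called genes with the smallest p, the largest change in mean CPM and the largest fold (mean of at least 5 CPM in the higher group), 8 in each direction, 2 called members per list and direction, members with a defining role, and genes that the study itself discusses. It gave 113 genes. A few other list members are named after their values were seen. Lists are described by counts and medians, with no test. Promoters came from RefSeq (GRCm38.p6). The libraries held 11391577 to 14216034 counts, and intervals and floors cover counting error only. Some members of the lists are not reported here by name.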

Additional observations from a re-analysis of the deposited data

Results flagged for a closer look

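The 302 groups of 4 values examined were for named genes, list members among them, summed lists, summed markers and PC scores. Of these, 17 (5.63%) held a library far from the other 3 by Dixon's test at its 95% critical value for the gap over the range. That value would flag about 1 of 20 independent groups, but these groups overlapped and many genes were chosen for their change. In LPS replicate 2 the flagged values were Gpr34 at 888 CPM, Cdc6 at 17.4 CPM and the summed mitosis and G2/M genes at 150 CPM. The other flagged LPS values were Camp at 0.510 CPM and Gapdh at 399 CPM in replicate 1, Il6st at 267 CPM in replicate 3, and Cst3 at 10312 CPM and the summed endothelial markers at 15.0 CPM in replicate 4. Among the PBS libraries they were Prkch at 56.6 CPM, Marco at 0.144 CPM and Tgfbr1 at 2708 CPM in replicate 1, Camp at 7.98 CPM and the summed monocyte markers at 12.5 CPM in replicate 2, Ctsl at 933 CPM, Nlrc5 at 8.13 CPM and Tap1 at 76.8 CPM in replicate 3, and H2-Ob at 56.7 CPM in replicate 4. Each of the 8 libraries held at least 1 of these values, and LPS replicate 2, PBS replicate 1 and PBS replicate 3 held 3 each. No PC score was flagged, although LPS replicate 2 lay alone on PC2.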

How the results depend on the processing

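The count of calls depended mainly on the fold limit. With none, 6703 genes were called (3466 higher, 3237 lower) and 73 list members were lower, against 3563 and 41 as reported. With a limit of 2, 1773 were called (922 higher, 851 lower), with 150 list members higher and 24 lower against 254 and 41. Median-ratio and total-count scaling gave 3554 and 3539 genes, DESeq2 3559, limma-voom 3582, no low-count filter 3877 and a minimum count of 50 2888. Leaving out 1 library gave 3364 to 4044 genes, 1743 to 2081 higher and 1601 to 1963 lower. The median log2FC of the immediate early list was 0.25 as reported and ran from -0.12 (without LPS replicate 1) to 0.54 when 1 library was left out, and that of the JAK, STAT and SOCS list was -0.03 and ran from -0.081 to 0.010 (without LPS replicate 2). Among interferon-stimulated genes 32 were called higher as reported, 20 with a replicate block, 21 with limma-voom and 26 to 33 without 1 library. Il1r2, Zbp1 and Oasl1 lost their calls in limma-voom, and Egr2, Tlr5, Tlr9, Smad6, Cenpf, P2ry6 and Il6st in at least 1 fit without a library. The labels give both groups replicate numbers 1 to 4, but same-numbered libraries did not deviate together (correlations of -0.03 to 0.02) and share only a number. With the replicate block 3452 genes were called, 1781 higher and 1671 lower, and Hspa1b lost its call. The cause of these changes was not tested. Depth limits the rarest genes, whose SE is widest, and 4 libraries per group limit the rest.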

Other observations

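Genes of the circadian clock, a list put together after their values were seen, fell at 10 of 17 tested and rose at 2. Over all genes 13% were called lower and 14.4% higher. The median log2FC of the list was -1.30, and 1 rose without LPS replicate 2, when Nfil3 lost its call. Hlf, a PAR bZIP factor whose transcript oscillates, stood at 11.7, 12.3, 10.6 and 9.23 CPM with PBS and at 0.510, 0.342, 0.460 and 0.147 CPM with LPS (log2FC -4.87, SE 0.28, edgeR adjusted p = 1.99e-07). Dbp, of the same family, stood at 9.69, 14.2, 11.8 and 10.5 CPM with PBS and at 0.656, 0.599, 0.767 and 0.662 CPM with LPS. In both, the groups lay far apart and LPS replicate 2 stood with its own. Nr1d1 and Nr1d2, the REV-ERB repressors, fell from 5.10 ± 1.48 to 0.346 ± 0.245 CPM and from 83.9 ± 9.47 to 8.88 ± 6.53 CPM, and Per2 and Per3 fell with log2FC of -1.98 and -1.81. Arntl, which encodes BMAL1, stood at 16.4 ± 1.63 and 15.5 ± 1.01 CPM (edgeR adjusted p = 0.568), and Clock was not called either (log2FC 0.06). Bhlhe40, a repressor of the loop, rose (log2FC 1.08). The time of day of collection is not given in the labels.

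Other lists put together in the same way changed in part, beside 14.4% of all genes called higher and 13% called lower. Of 13 tested iron handling genes 6 rose and 2 fell. Slc40a1, the iron exporter ferroportin, stood at 513, 505, 504 and 475 CPM with PBS and at 74.8, 230.1, 112 and 79.1 CPM with LPS (log2FC -2.01, SE 0.37, edgeR adjusted p = 0.00314), with LPS replicate 2 the highest of its group. Fth1, the ferritin heavy chain, rose from 1134 ± 33.4 to 2662 ± 388 CPM and Tfrc, the transferrin receptor, from 21.5 ± 2.53 to 53.8 ± 14.9 CPM. Of 18 cytosolic and mitochondrial heat shock proteins and cochaperones 12 rose and none fell (median log2FC 0.92), among them Hspa8 at 806, 1052, 1197 and 1417 CPM with PBS and 3183, 2920, 3156 and 3505 CPM with LPS. Of 15 cathepsins and cystatins 5 rose and 2 fell. Ctsc, which activates granule proteases, rose from 1049 ± 42.2 to 3967 ± 789 CPM and Ctsl from 982 ± 32.6 to 2902 ± 233 CPM, while Cst3, the most abundant secreted cystatin here, fell from 20501 ± 469.6 to 11006 ± 466 CPM together with Ctsd.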
